A study of Mus musculus with 6 samples.

Results

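Olfr907, Olfr784 and Olfr1390 are the 3 odorant receptor (OR) genes with the most reads in RNA-Seq libraries from mouse olfactory mucosa. They were chosen by their measured values, namely the estimated counts summed over all 6 mice, out of 1086 intact ORs, meaning Olfr genes that carry no pseudogene mark in the files or in the annotation. The files held 24661 genes, of which 1248 were named Olfr. Since the counts chose these genes, their abundance is given as a description. Only the comparison of the genotypes, whose labels the sum over all mice did not use, was tested. The sums were 462477 counts for Olfr907, 67296 for Olfr784 and 61775 for Olfr1390. Just outside the choice stood Olfr1033 with 28413 counts and Olfr1197 with 27770.

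ORs are G protein-coupled receptors that detect odorants on the cilia of olfactory sensory neurons (OSNs), and each mature OSN expresses essentially a single OR gene. Binding of an odorant activates the G protein subunit encoded by Gnal, adenylyl cyclase encoded by Adcy3 and a cyclic nucleotide-gated channel that includes the product of Cnga2. RTP1 and RTP2 are transmembrane accessory proteins that promote the transport of ORs to the cell surface. The abundance of an OR in tissue RNA therefore combines the number of OSNs that chose it with the RNA of that gene in each of them.

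The study compared 3 wild-type mice with 3 RTP1,2DKO mice, which lack Rtp1 and Rtp2. All 6 were labelled as C57BL/6 at post natal day 21. The methods describe sex-matched littermates of 3 weeks and a germline knockout in which the coding regions of both genes were replaced in 129/B6 hybrid embryonic stem cells before crosses to C57BL/6. The labels name olfactory epithelium, while the methods describe whole mucosa including surrounding tissue, so that fewer cells of a type and less RNA per cell cannot be told apart.

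The libraries held between 31125410 and 41636996 estimated counts, and between 280989 and 374118 of these fell on intact ORs. Rtp1 had between 12283 and 26518 counts in wild-type mice and between 86 and 111 in RTP1,2DKO mice, and Rtp2 had between 6491 and 9968 against between 30 and 55. The targeted genes thus followed the labels in all 6 libraries. A single gland gene, Bpifb9b, took between 4.81% and 13.74% of a library's counts. Xist, which is transcribed from the inactive X chromosome, had 77210 and 76124 counts in mouse 2 of wild-type and of RTP1,2DKO and at most 153 in the other mice. Ddx3y, a gene of the Y chromosome, had 13 counts in each mouse 2 and at least 3093 in the others. The methods describe males and a female, and by these genes mouse 2 was the female of each group.

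The genes lie on different chromosomes and share a common plan, with a coding sequence contained in the last of 3 exons. Positions refer to GRCm38 and the GENCODE M21 annotation. Olfr907, also known as MOR165-5, spans chr9:38495801-38499882 on the plus strand, with a coding sequence of 933 bases. Olfr784, also known as MOR110-3, spans chr10:129384083-129390198 on the plus strand, with a coding sequence of 960 bases. Olfr1390, also known as MOR256-2, spans chr11:49335188-49342247 on the plus strand, with a coding sequence of 936 bases. No other annotated gene overlapped any of them. Between the members, the coding sequences were 53.9% to 55.8% identical.

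By annotated sequence, how far a read can be assigned to a single gene differed between the members. The closest coding sequence to that of Olfr907 was Olfr920 at 79.7% identity, and the closest to Olfr1390 was Olfr1386 at 81.4%. Olfr784 had a much closer relative, Olfr801, at 92.7%. The longest run of bases that Olfr907 and Olfr784 each share with the coding sequence of another intact OR is printed here in capitals, with up to 20 bases on each side in lower case, because a read that falls wholly inside such a run fits both genes. The member is given first and the other OR next, each 5′ to 3′ in the direction of the gene, read from GENCODE M21 transcripts.

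Olfr907, chr9:38499000-38499076, plus strand: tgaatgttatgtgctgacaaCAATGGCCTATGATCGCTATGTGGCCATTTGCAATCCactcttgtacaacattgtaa
Olfr878, chr9:37918985-37919061, plus strand: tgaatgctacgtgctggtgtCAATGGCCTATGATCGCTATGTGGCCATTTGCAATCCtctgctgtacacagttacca
Olfr784, chr10:129387735-129387893, plus strand: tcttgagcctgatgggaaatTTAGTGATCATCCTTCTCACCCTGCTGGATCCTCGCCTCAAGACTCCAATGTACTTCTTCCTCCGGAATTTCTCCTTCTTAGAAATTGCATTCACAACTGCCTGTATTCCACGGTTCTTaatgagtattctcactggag
Olfr801, chr10:129670259-129670417, minus strand: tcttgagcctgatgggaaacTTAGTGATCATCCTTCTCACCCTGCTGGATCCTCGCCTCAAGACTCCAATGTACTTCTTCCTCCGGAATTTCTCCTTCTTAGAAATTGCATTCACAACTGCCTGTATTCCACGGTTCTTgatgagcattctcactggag

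The shared run was 37 bases for Olfr907 and 119 bases for Olfr784. It began at base 350 of the coding sequence of Olfr907 and at base 121 of that of Olfr784. Words of 31 bases were compared on either strand and in the annotated transcripts, which are not the deposited ones that received the counts. The longest annotated transcripts of Olfr907, Olfr784 and Olfr1390 had 1910, 3119 and 2875 bases. The deposited ones with the most counts had 1425, 3753 and 4051. Of all words of 31 bases in the annotated transcripts, 98.4% of those of Olfr907 and 99.1% of those of Olfr1390 occurred in no other annotated gene. The corresponding share was 51.3% for Olfr784. Of the words of the coding sequence alone, 58.8% occurred in no other gene for Olfr784, against 99.2% for Olfr907 and 97.2% for Olfr1390. Of 389 shared words that overlapped the coding sequence of Olfr784, 380 occurred in other ORs. In the stretch that follows the coding sequence of its longest annotated transcript, 1115 of 1574 words also occurred in genes that are not ORs, with 27 such genes sharing at least 100 words. Slc38a6, Noct and Rab3gap1 shared the most, with 552, 527 and 516 words. The part of these shared stretches in the count of Olfr784 was not tested. The stretch after the coding sequence of Olfr907 held 26 shared words out of 249, and genes that are not ORs and share at least 1 word with Olfr907 numbered 2834, none with more than 10 words. Their part in the count of Olfr907 was likewise not tested.

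Olfr907 was the most abundant OR in each of the 6 mice. The 3 wild-type mice, in the order of their numbers, had estimated counts of 60014, 83039 and 65289 for it, and the RTP1,2DKO mice 67210, 82816 and 104109. The groups overlapped in these raw counts, and the highest mouse exceeded the lowest by 1.73 times. All of the counts lay on a deposited transcript of 1425 bases, whereas a transcript of 932 bases, 1 base shorter than the coding sequence, was listed at 0 in all 6 mice. Transcripts of that kind were common in the files, since 615 of 1079 intact ORs with an annotated coding sequence had a deposited transcript 1 base shorter than it. Olfr907 alone made up 0.177% to 0.272% of all counts of a library.

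Olfr784 was the second most abundant OR by summed counts and ranked 2 or 3 in each mouse. Its counts were 10244, 12966 and 12438 in wild-type mice and 9064, 12701 and 9884 in RTP1,2DKO mice. The groups overlapped, and the highest mouse exceeded the lowest by 1.43 times, the narrowest range of the members. All counts lay on a transcript of 3753 bases, and the transcripts of 587 and 959 bases were listed at 0 in every mouse. The transcript of 959 bases is again 1 base shorter than the coding sequence.

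Olfr1390 was the most variable of the members between mice. It had 11684, 7936 and 7502 counts in wild-type mice and 18186, 7256 and 9211 in RTP1,2DKO mice, a range of 2.51 times. Mouse 1 was the highest of its group in both genotypes, and RTP1,2DKO mouse 1 stood above all the others. At least 99.8% of the counts in a mouse lay on a transcript of 4051 bases, and the transcript of 473 bases was listed at 0. The transcript of 935 bases took the rest, 13, 9 and 3 counts in wild-type mice and 9, 4 and 14 in RTP1,2DKO mice. The share of this short transcript averaged 0.0882% ± 0.0418 (SD, n = 3) over the wild-type mice against 0.0855% ± 0.0576 over the RTP1,2DKO mice, with no difference found by an exact two-sided permutation test (p = 1.0, where the smallest possible value is 0.1).

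That nearly all counts of a member fell on a single transcript was not the rule among ORs. Of 887 intact ORs with several transcripts and an average of 10 counts or more, 54, or 6.09%, had at least 99% of their counts on 1 transcript. The leading transcript of these ORs had a median length of 2663 bases. That of Olfr907 was short, with 17.5% of the ORs having a shorter one, while 74.4% had a shorter one than Olfr784 and 81.2% a shorter one than Olfr1390. Longer transcripts collect more reads at the same number of molecules, so levels were ordered between genes by FPKM. FPKM is the counts per kilobase of effective length and per fixed number of counts of the library. It was computed for each transcript and summed over the transcripts of a gene. Effective length falls faster than length, to 71.5 bases for a transcript of 473 bases, so counts on short transcripts weigh heavily in the sum.

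By this summed FPKM, Olfr907 stood further apart and the other members moved down the order. The FPKM of Olfr907 was 2039.9, 2872 and 2202 in wild-type mice and 2485, 2289 and 3124 in RTP1,2DKO mice. The FPKM of Olfr784 was 94.7, 121.9 and 114.0 in wild-type mice and 91.1, 95.4 and 80.6 in RTP1,2DKO mice. The FPKM of Olfr1390 was 99.7, 68.9 and 63.1 in wild-type mice and 167.9, 50.1 and 69.6 in RTP1,2DKO mice. Over the 6 mice the mean FPKM was 2502 ± 418 (SD) for Olfr907, 99.6 ± 15.4 for Olfr784 and 86.5 ± 43.0 for Olfr1390. Among intact ORs, Olfr907 was first by FPKM in every mouse, Olfr784 ranked between 3 and 5 and Olfr1390 between 3 and 7. Olfr784 and Olfr1390 changed places between mice, and their levels did not differ beyond the spread between mice. Olfr727, only the 31st by counts, came second with a mean FPKM of 186.6, and Olfr1213, the 35th, came 4th with 94.9. Their leading transcripts had 1034 and 2496 bases, but these FPKM are sums over all their transcripts. The part of shorter transcripts in them was not tested.

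The FPKM of Olfr907 also exceeded that of Omp, Gnal, Cnga2 and Adcy3, which OSNs use in general. This order is per length of the deposited transcripts. In raw counts Omp was above Olfr907 in wild-type mouse 1, at 65068 against 60014, and below it in the other mice. Omp, which encodes the olfactory marker protein found throughout mature OSNs, had an FPKM of 1106 to 1192 in wild-type and 522 to 654 in RTP1,2DKO mice. In each group, the lowest FPKM of Olfr907 lay above the highest of Omp. Gnal lay between 118.4 and 334.9 FPKM over all mice, and Cnga2 between 83.4 and 263.1. In wild-type mice the levels of Olfr784 and Olfr1390 were of the order of Adcy3, at 87.1 to 117.9 FPKM. In RTP1,2DKO mice Adcy3 was at 36.1 to 40.2 FPKM, below Olfr784 at 80.6 to 95.4 and Olfr1390 at 50.1 to 167.9. In situ counts of the neurons that express these receptors were not analysed here.

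**Figure D1:**
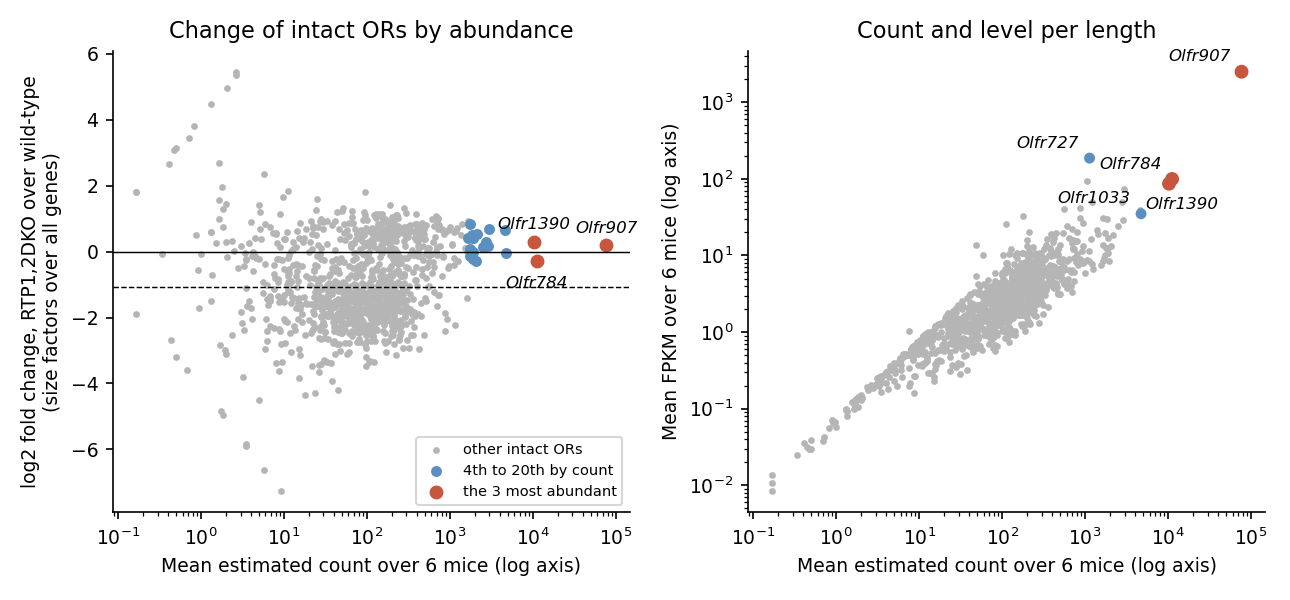
Each point is an intact OR with at least 1 count in some mouse. Left, the mean estimated count over 6 mice (log axis) against the log2 fold change of RTP1,2DKO over wild-type with size factors over all genes, with a dashed line at the median of -1.08; the members lie close to 0, at 0.20, -0.28 and 0.31. Right, the same count against the mean FPKM (log axes), where Olfr907 stands apart at 2502 FPKM and Olfr727 exceeds Olfr784 and Olfr1390 in spite of fewer counts.

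A substantial part of the OR reads came from these genes in every mouse. Olfr907 took 19.3%, 22.2% and 23.2% of the counts on intact ORs in wild-type mice and 23.4%, 27.6% and 33.4% in RTP1,2DKO mice. The groups did not overlap, but the highest wild-type mouse and the lowest RTP1,2DKO mouse were nearly equal. The means were 21.6% ± 2.03 (SD, n = 3) and 28.2% ± 5.03, a difference of 6.58 percentage points at an exact two-sided permutation p = 0.1. This is the smallest p that 3 mice against 3 allow, and it became 0.2 after Benjamini-Hochberg adjustment over the 4 shares compared.

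The shares of the smaller members overlapped between the genotypes. Olfr784 took 3.30%, 3.47% and 4.43% of the intact OR counts in wild-type mice and 3.16%, 4.24% and 3.18% in RTP1,2DKO mice. The ranges overlapped, with an exact permutation p = 0.5, and the difference of -0.21 percentage points became 0.14 without wild-type mouse 3 and 0.15 when Olfr907 was left out of the denominator. Olfr1390 took 3.76%, 2.12% and 2.67% in wild-type mice and 6.34%, 2.42% and 2.96% in RTP1,2DKO mice. The ranges overlapped, with an exact permutation p = 0.6, and the difference of 1.06 percentage points turned to -0.16 without RTP1,2DKO mouse 1. Between mice of the same number the share of Olfr1390 was higher in RTP1,2DKO in 3 of 3 pairs, with a paired exact permutation p of 0.25, the smallest that 3 pairs allow.

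Together the members took 26.4%, 27.8% and 30.3% of the intact OR counts in wild-type mice and 32.9%, 34.3% and 39.6% in RTP1,2DKO mice. The difference of 7.43 percentage points had an exact permutation p = 0.1, adjusted 0.2, and the groups did not overlap. Counted per kilobase of effective length, transcript by transcript and then summed, the share of Olfr907 alone was 28.7% to 33.2% in wild-type and 36.2% to 47.0% in RTP1,2DKO mice. The intact ORs without the members made up 0.675%, 0.812% and 0.574% of all counts in wild-type mice and 0.618%, 0.473% and 0.490% in RTP1,2DKO mice. The difference of -0.16 percentage points had an exact permutation p = 0.2, or 0.45 after adjustment over 3 such shares, and 1 RTP1,2DKO mouse lay within the wild-type range. As a share of all counts, the members together were at 0.268% ± 0.0386 (SD, n = 3) for wild-type mice against 0.291% ± 0.0389 for RTP1,2DKO mice, with an exact permutation p = 0.6.

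**Figure D2:**
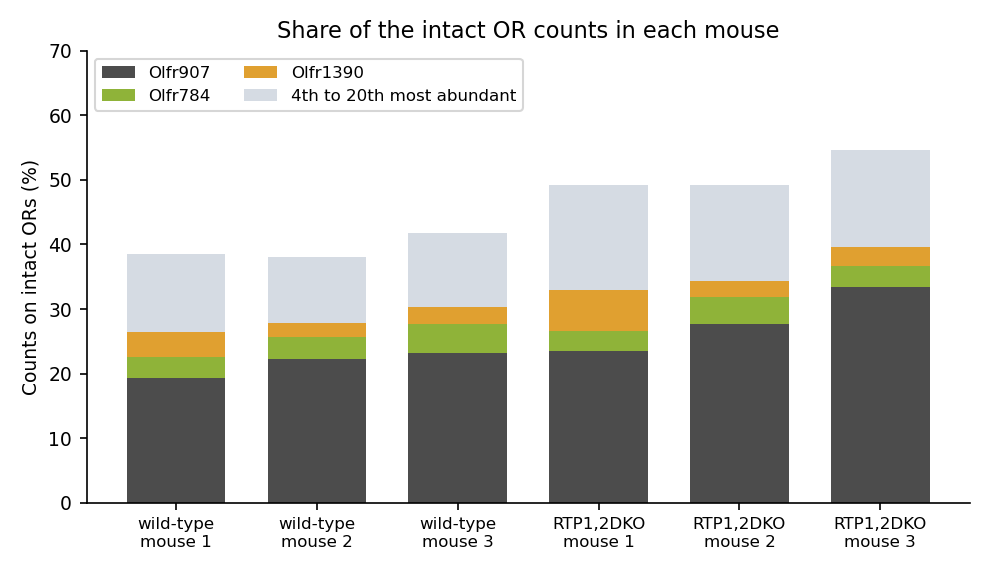
Bars give the share of the counts on intact ORs (y axis, percent) that fell on Olfr907, Olfr784, Olfr1390 and the 4th to 20th most abundant intact ORs in each of the 6 mice. The members together take 26.4% to 30.3% in the wild-type mice and 32.9% to 39.6% in the RTP1,2DKO mice, with Olfr907 as the largest part in each mouse.

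The genotypes were first compared with size factors over all genes, which asks whether the RNA of a gene changed relative to the tissue as a whole. None of the members was called at an adjusted p under 0.05 by edgeR's quasi-likelihood test, adjusted over all 22152 genes tested. None passed at an unadjusted p under 0.05 either, and DESeq2's Wald test called none, with an unadjusted p of 0.040 for Olfr784. In this comparison 3.61% of all genes and 42.7% of the intact ORs were called, and the median log2 fold change of intact ORs was -1.08. The normalized count of Olfr907 was 62290, 79497 and 72229 in wild-type mice and 71062, 72466 and 102367 in RTP1,2DKO mice. Its log2 fold change was 0.20 ± 0.16 (SE), with a 95% interval from -0.15 to 0.55 and an adjusted p of 0.74.

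Olfr784 had normalized counts of 10632, 12413 and 13760 in wild-type and 9583, 11114 and 9718 in RTP1,2DKO mice. The ranges overlapped by 1 mouse of each group. The log2 fold change was -0.28 ± 0.13 (SE), with an interval from -0.56 to 0.0070 and an adjusted p of 0.45. Between mice of the same number it was lower in RTP1,2DKO in 3 of 3 pairs, by 0.15, 0.16 and 0.50 on the log2 scale, and the edgeR fit with the number as a block gave an interval from -0.51 to -0.026, with an unadjusted p of 0.033 and an adjusted p of 0.30. Olfr1390 had normalized counts of 12128, 7597 and 8300 in wild-type and 19228, 6349 and 9057 in RTP1,2DKO mice. The ranges overlapped widely, and the log2 fold change was 0.31 ± 0.31 (SE), with an interval from -0.38 to 0.99 and an adjusted p of 0.81. Without RTP1,2DKO mouse 1 it was -0.28, so the direction for Olfr1390 rested on that mouse. Taken as transcripts, the leading ones of Olfr907, Olfr784 and Olfr1390 were at 0.20 ± 0.20 (SE), -0.28 ± 0.13 and 0.31 ± 0.44, and the short transcript of Olfr1390 was at 0.070 ± 0.89. None was called, nor had an unadjusted p under 0.05, in an edgeR fit that called 0.0242% of all transcripts and that found few of the changes put into simulated counts, so that little can be read from it. The intervals of all 3 genes lay above the median change of the intact ORs.

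Relative to the other ORs the picture differed. With size factors over intact ORs, which ask whether a gene changed relative to the typical OR, Olfr907, Olfr784 and Olfr1390 were all called higher in RTP1,2DKO, but when the summed count of the intact ORs set the scale none was called and Olfr784 pointed the other way, at a log2 fold change of -0.082. In the comparison with size factors over intact ORs, 29.1% of 1078 intact ORs were called higher and 25.9% lower. With the summed count as the scale, 16.4% were called higher. A call of higher was therefore shared by many ORs under the former scale. How many intact ORs had groups without overlap was not counted, so that a lack of overlap is given as a description.

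The OR-normalized count of Olfr907 was 44764, 50425 and 57796 in wild-type mice and 88844, 107671 and 151083 in RTP1,2DKO mice. The groups did not overlap, and the log2 fold change was 1.18 ± 0.34 (SE), or 2.27-fold, with an interval from 0.50 to 1.87 and an adjusted p of 0.0028. Scaling to the summed count gave 0.38, with an adjusted p of 0.24. Leaving the members out of that sum gave 0.55, with an adjusted p of 0.12.

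Olfr784 had OR-normalized counts of 7641, 7873 and 11010 in wild-type mice and 11981, 16513 and 14343 in RTP1,2DKO mice. The groups did not overlap, and the log2 fold change was 0.69 ± 0.27 (SE), or 1.62-fold, with an interval from 0.14 to 1.24 and an adjusted p of 0.028. This call was the least stable of the members, since the adjusted p was 0.099 without wild-type mouse 1, 0.097 without wild-type mouse 2 and 0.085 without RTP1,2DKO mouse 2. Leaving the members out of the summed count that sets the scale gave 0.070.

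Olfr1390 had OR-normalized counts of 8715, 4819 and 6641 in wild-type mice and 24039, 9434 and 13366 in RTP1,2DKO mice. The groups did not overlap, although the highest wild-type mouse and the lowest RTP1,2DKO mouse were close. The log2 fold change was 1.22 ± 0.30 (SE), or 2.32-fold, with an interval from 0.62 to 1.81 and an adjusted p of 0.00048. Without RTP1,2DKO mouse 1 it was 0.77, with an adjusted p of 0.017. Scaling to the summed count gave 0.45, with an adjusted p of 0.13, and leaving the members out of that sum gave 0.60, with an adjusted p of 0.060.

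**Figure D3:**
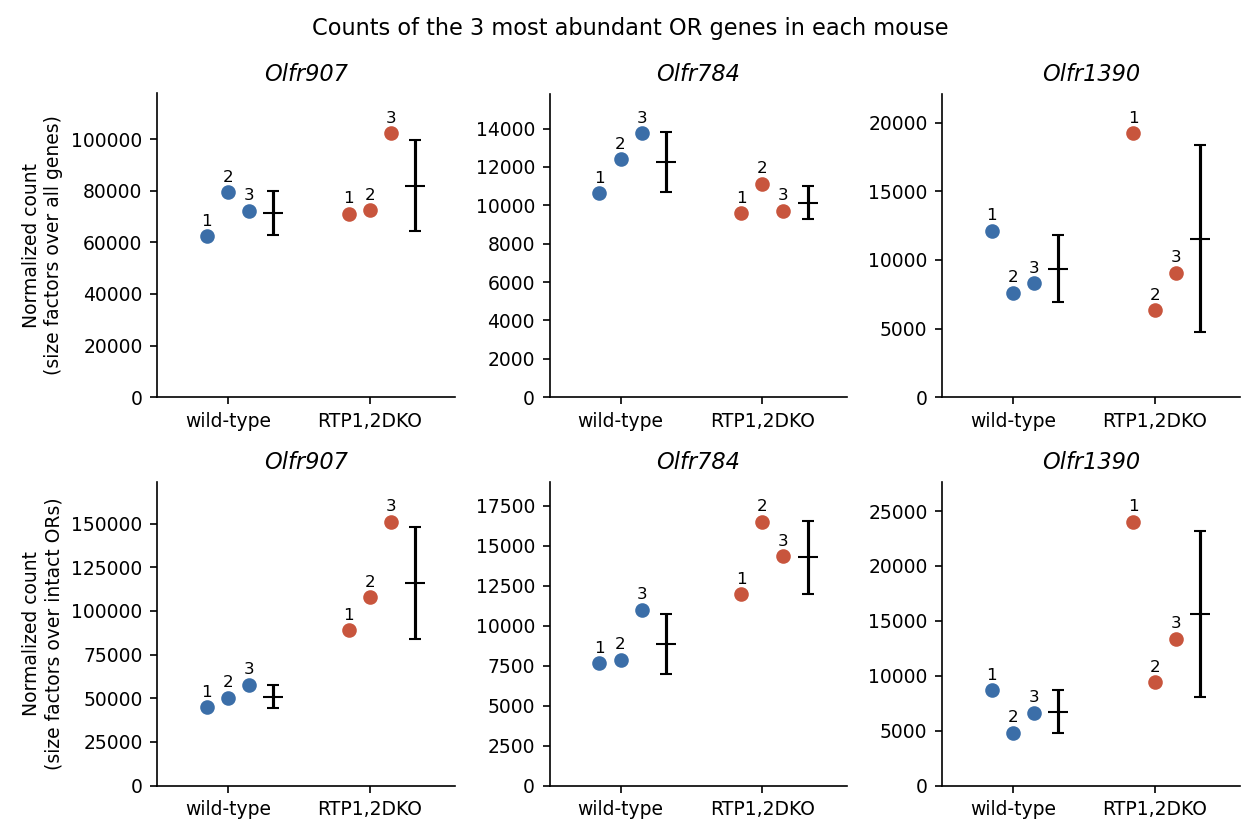
Normalized counts of Olfr907, Olfr784 and Olfr1390 in each mouse, numbered 1 to 3 within the group, with the mean and SD in black. With size factors over all genes (top row) the groups overlap for every member. With size factors over intact ORs (bottom row) the RTP1,2DKO mice lie above the wild-type mice for every member. How many other intact ORs do so was not counted, and 29.1% of the intact ORs were called higher on this scale. No member was called when the summed count of the intact ORs set the scale, where Olfr784 was at -0.082.

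The ratios that follow are ratios of counts, not of levels per length, and serve to compare the genotypes. Among the intact ORs, the changes of the members were above the middle without being extreme. Of 960 intact ORs that averaged 10 counts or more, 76.6% had a lower log2 fold change than Olfr907, 67.0% than Olfr784 and 77.3% than Olfr1390, with size factors over intact ORs. The count of Olfr907 was 555, 581 and 686 times the median count of an intact OR in wild-type mice and 1232, 1478 and 2016 times in RTP1,2DKO mice. That median was 108.1, 143.0 and 95.1 counts in wild-type and 54.6, 56.0 and 51.6 in RTP1,2DKO mice. The 3 ratios of a member to the median OR and the 3 ratios between members were compared as a family chosen after the data were seen. On the log2 scale, the ratio to the median OR was higher in RTP1,2DKO by 1.35 for Olfr907, 0.89 for Olfr784 and 1.34 for Olfr1390, each without overlap and at an exact permutation p = 0.1, adjusted 0.15. How many other intact ORs separate in this way was not counted. Since the median OR itself had fewer counts in RTP1,2DKO mice, these ratios are not separate from the comparison with size factors over intact ORs.

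The members did not keep a fixed ratio to each other. The log2 ratio of Olfr907 to Olfr784 was 2.55, 2.68 and 2.39 in wild-type and 2.89, 2.71 and 3.40 in RTP1,2DKO mice. The groups did not overlap, by a narrow margin, with a difference of 0.46 and an exact permutation p = 0.1, adjusted 0.15. The log2 ratio of Olfr907 to Olfr1390 ranged from 1.89 to 3.51 over the mice, with a difference between genotypes of 0.0092 and an exact permutation p = 1.0. In mouse 1 of both genotypes Olfr1390 had more counts than Olfr784, with log2 ratios of Olfr784 to Olfr1390 of -0.19 and -1.005, while the other 4 mice had ratios between 0.10 and 0.81.

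The next 17 intact ORs by abundance ran from Olfr1033 down to 10023 summed counts. Like the members, all 17 were called higher with size factors over intact ORs, against 29.1% of all intact ORs. Their log2 fold changes ran from 0.67 to 1.83 with a median of 1.23, against a median of -0.11 over all intact ORs tested. With the summed count as the scale 8 of the 17 were called higher, against 16.4% of all intact ORs. With size factors over all genes the median of the 17 was 0.29 and 2 were called, both higher, namely Olfr1197 at 0.66 and Olfr145 at 0.84. No member was called on either of these scales. Olfr1033 was at -0.049 with size factors over all genes. These genes, like the members, were chosen by abundance over the 6 mice. An OR whose counts hold or rise in RTP1,2DKO mice gains in that sum over one whose counts fall. The choice is therefore not independent of the change, and the shares called are given as a description.

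The ORs whose OR-normalized counts followed each member most closely over the 6 mice were found by Pearson's r of log2 values among 714 other intact ORs that averaged 50 counts or more. For Olfr907 they were Olfr157, Olfr873 and Olfr554, with r of 0.995, 0.993 and 0.992. Olfr784 was followed by Olfr649, Olfr446 and Olfr429, with r of 0.993, 0.989 and 0.972. The closest to Olfr1390 were Olfr393, Olfr1204 and Olfr731, with r of 0.992, 0.985 and 0.985. Olfr393 repeated the high value in mouse 1 of both genotypes, with 1621, 1184 and 1364 OR-normalized counts in wild-type and 3669, 1940 and 2283 in RTP1,2DKO mice. These are the highest of many correlations over 6 points that share libraries and size factors, and are given as a description. Olfr873 lies on chromosome 9 with Olfr907, and Olfr393 on chromosome 11 with Olfr1390, while the other 7 lie on other chromosomes than their member.

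Nearby ORs on the same chromosome were called in both directions. With size factors over intact ORs, 29.1% of all 1078 intact ORs tested were called higher and 25.9% lower. Around Olfr907, 1 of the 10 nearest intact ORs, 5 on each side, was called higher and 3 lower with size factors over intact ORs, with a median log2 fold change of -0.36. Olfr901 rose by 1.69, while Olfr910, the nearest on the side of higher coordinates, fell by 1.20. The 10 neighbours had mean counts of at most 210.0, with a median of 42.3, against at least 60014 counts of Olfr907 in each mouse.

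Around Olfr784, 3 of the 10 nearest were called higher and 3 lower, with a median of 0.11. These counts were close to the shares over all intact ORs, 29.1% and 25.9%. Olfr790 rose by 2.43 and Olfr781 by 2.20, whereas Olfr787 fell by 1.17 and Olfr788 by 1.16. Olfr777 was called higher at 0.75, but was at -0.036 with the summed count as the scale. The closest relative, Olfr801, is not among these neighbours.

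Around Olfr1390, 5 of the 10 nearest were called higher and 3 lower, with a median of 1.07. Olfr1391 rose by 1.63, Olfr1386 by 1.71 and Olfr1387 by 1.49, while Olfr1389, the next intact OR on the side of higher coordinates, fell by 1.25. This neighbourhood held further abundant ORs, since Olfr1388 had a mean of 2881 counts and a log2 fold change of 1.14 and Olfr1385 a mean of 1739.9 counts and a log2 fold change of 1.00. With the summed count as the scale the calls of Olfr1388 and Olfr1385 were lost, at 0.36 and 0.23 with adjusted p of 0.16 and 0.37, and 3 of the 10 nearest were called higher. On that scale 16.4% of all intact ORs were called higher. Over whole clusters, in which neighbouring intact ORs lie less than 1 Mb apart, 20 of 88 tested ORs were called higher and 32 lower around Olfr907, 23 and 9 of 55 around Olfr784, and 10 and 3 of 18 around Olfr1390. Over all intact ORs tested, 29.1% were called higher and 25.9% lower. Genes of a cluster share sequence, so neighbours are not independent of each other.

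**Figure D4:**
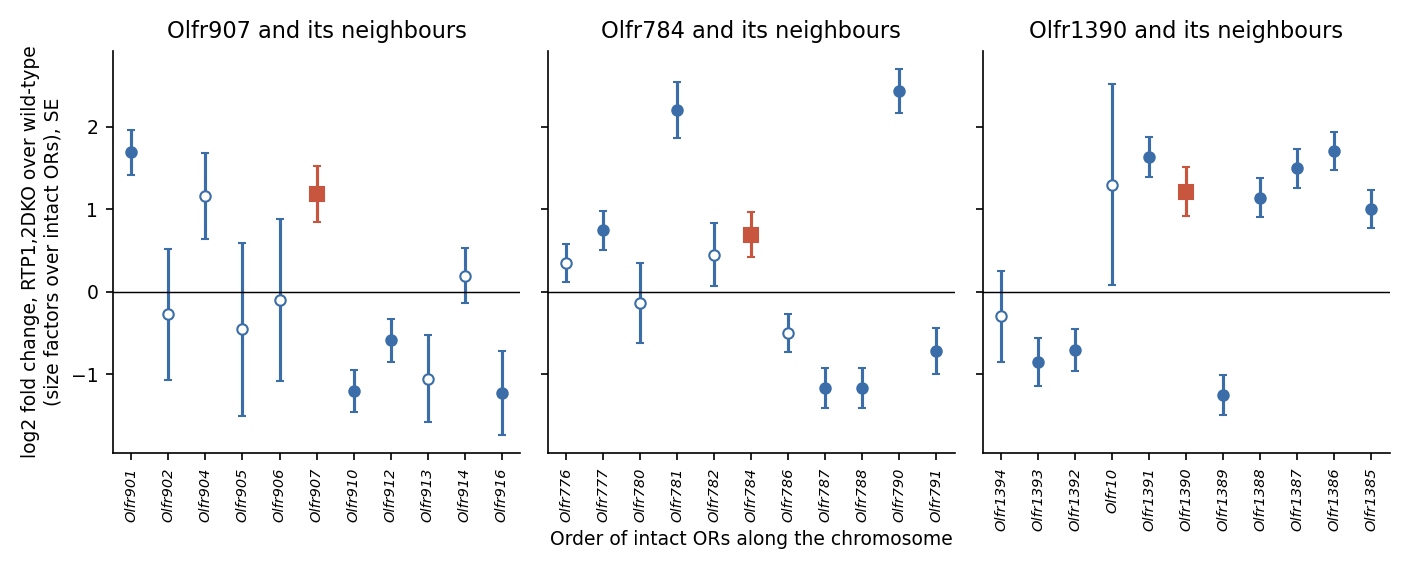
Log2 fold change of RTP1,2DKO over wild-type with size factors over intact ORs (y axis, bars are SE) for each member (square) and the 5 nearest intact ORs on each side (circles), in chromosome order (x axis). Filled circles and squares were called at an adjusted p under 0.05; genes called higher and lower lie side by side, as with Olfr1390 at 1.22 and Olfr1389 at -1.25.

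Downstream of the receptors, most genes of olfactory signaling fell. With size factors over all genes, 11 of 19 OSN signaling and receptor transport genes were called lower in RTP1,2DKO and none higher, also at an unadjusted p under 0.05, with a median log2 fold change of -0.92 against 0.016 over all genes tested. Of all 22152 genes tested, 697 were called lower and 102 higher. Adcy3 fell by 1.41, Cnga2 by 1.06 and Gnal by 0.94, although with only the leading transcript of each gene counted the call of Gnal was lost, at an adjusted p of 0.095. Stoml3, which encodes a stomatin-like protein of OSN cilia, fell by 2.00, and Ric8b, which encodes a chaperone and exchange factor for the olfactory G protein, fell by 0.92. Gnb1 at -0.47 did not pass, with an adjusted p of 0.077, but was called with the mouse number as a block, with an adjusted p of 0.036. Arrb2, which encodes a β-arrestin, was at 0.22 and Rgs2, a regulator of G protein signaling, at 0.31, with adjusted p of 0.54 and 0.53.

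Of the markers of 9 cell type groups, those of mature OSNs moved most clearly with the genotype. Of the 6 mature OSN markers 5 were called lower, and the summed level of the 6 was 3057 to 3698 CPM (counts scaled to the library total) in wild-type and 1489 to 1582 in RTP1,2DKO mice. All of these markers except Omp were also among the signaling genes above, so the lists are not separate observations. Omp fell by 0.90, with an adjusted p of 0.067 when only its leading transcript was counted. Of 4 immature OSN markers, Gap43 at 0.58 and Gng8 at 0.91 were called higher and Stmn4 at -0.88 lower, with summed levels of 344 to 459 CPM in wild-type and 475 to 595 in RTP1,2DKO mice. With only leading transcripts counted the adjusted p of Gng8 was 0.11 and that of Gap43 0.22, and the filter on low counts gave 0.051 for Gap43. The call of Gap43 was also lost when any single mouse other than wild-type mouse 1 was left out. None of the 5 basal and progenitor markers was called, nor any of the 4 sustentacular, 4 Bowman's gland, 4 respiratory ciliated, 4 vomeronasal, 5 blood and immune or 5 bone, cartilage and muscle markers. Of these 31 genes, 9 had an unadjusted p under 0.05 in edgeR's test, and DESeq2's Wald test called 1, Hbb-bs. Blood and immune markers summed to 1618 to 2880 CPM in wild-type and 2381 to 4921 in RTP1,2DKO mice, mostly through Hbb-bs, at 0.76 with an adjusted p of 0.084. The part of these cell type markers in the values of Olfr907, Olfr784 and Olfr1390 was not tested.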

How the data were processed

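RNA from the olfactory mucosa of 6 mice was sequenced. The authors ran kallisto, per the labels with mm10, on UCSC mouse transcripts in which OR genes had extended annotations, and deposited estimated counts and TPM per transcript. The version of kallisto is not given in the sources used here. The effective length of a transcript was the same in all 6 files. The labels and the methods name different stranded library kits.

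The estimated counts were summed per gene and rounded to whole numbers. Genes that reached 1 count in any mouse were tested with edgeR 4.0.16 (quasi-likelihood test) in R 4.3.3 with size factors from DESeq2 1.42.0 at a threshold of 0.05 on Benjamini-Hochberg adjusted p-values. Separate fits covered all genes, intact ORs, and transcripts. The DESeq2 Wald test was an alternative. FPKM was computed for each transcript from the estimated counts and summed per gene, and the deposited TPM served as an alternative. Shares and ratios were compared between genotypes with exact permutation tests in Python 3.11.15 with numpy 2.4.6. Positions and sequences came from GENCODE M21, and names such as MOR165-5 from RefSeq.

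Tested on simulated counts with known changes, the fit over all genes made more false calls than the nominal level, the fit over intact ORs missed part of the 2-fold changes, and the fit over transcripts missed nearly all of them. Samples were grouped by their labels, which number the mice in both groups. Over 18152 genes, deviations from the group means of mice with the same number correlated at r of 0.143, 0.181 and 0.101, each over 0.1. For mice of different numbers r lay between -0.223 and 0.092. The numbers were therefore used as possible pairs in a block fit and a paired permutation test. The main fits, intervals and permutation tests left the number out. Over 960 intact ORs the values for the same number were 0.181, 0.117 and -0.002, against -0.152 to 0.026 for different numbers. The value of number 3 thus lay within the range of the different numbers. Whether a shared number marks a litter is not stated, and p-values measure the spread between these mice. Mice of the same number also share their sex, and the part of sex in these correlations was not tested.

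The members and gene lists were chosen with earlier results of these data known. Named genes were the members, Rtp1 and Rtp2, fixed lists of signaling genes and cell type markers, the 5 nearest intact ORs on each side, the 4th to 20th most abundant intact ORs and the 3 most correlated. Of these lists only examples are named, and a listed signaling gene and a shared sequence of Olfr1390 are not reported here. The alternatives were TMM, a filter on low counts, only the leading transcript of each gene, other scalings and denominators, the replicate block and each mouse left out.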

Additional observations from a re-analysis of the deposited data

How the results depend on the processing

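With size factors over all genes, no alternative called any member. The log2 fold changes over the fits that left out a mouse ranged from 0.0057 to 0.29 for Olfr907, from -0.37 to -0.18 for Olfr784 and from -0.28 to 0.60 for Olfr1390. With size factors over intact ORs these ranges were 0.97 to 1.35, 0.60 to 0.89 and 0.77 to 1.499. Scaling to the summed count of the intact ORs gave 0.38 for Olfr907, -0.082 for Olfr784 and 0.45 for Olfr1390, and leaving the members out of that sum gave 0.55, 0.070 and 0.60, none called. Under these scalings 177 and 205 intact ORs were called higher in place of 314, and 516 and 480 lower in place of 279, and 8 and 10 of the next 17 abundant ORs were called higher in place of 17. Olfr777 was at -0.036 under the former.

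The difference in share of Olfr784 ranged from -0.56 to 0.14 over the fits without a mouse, and was 0.15 without Olfr907 in the denominator. That of Olfr1390 ranged from -0.16, without RTP1,2DKO mouse 1, to 1.80. The log2 fold change of the leading transcript of Olfr1390 ranged from -0.28, without the same mouse, to 0.60, and that of its short transcript from -0.38 to 0.57, with -0.31 without wild-type mouse 3. Whole clusters in place of the 10 nearest ORs gave 20 higher and 32 lower around Olfr907, 23 and 9 around Olfr784 and 10 higher around Olfr1390. The summed count as the scale, an alternative added after seeing the data, gave 3 higher around Olfr1390 in place of 5. Counting only leading transcripts ended the calls of Gnal, Omp, Gng8 and Gap43.

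With the replicate block the log2 fold changes were 0.19, -0.27 and 0.18 over all genes and 1.16, 0.70 and 1.147 over intact ORs for Olfr907, Olfr784 and Olfr1390. Over intact ORs the block gave SE of 0.13, 0.14 and 0.14 in place of 0.34, 0.27 and 0.30. Of the OSN signaling genes 13 in place of 11 were then lower. Besides Gnb1, the block changed no call of a gene named with a value. A block of 3 pairs cannot give an exact p under 0.25 for the shares. With 3 mice a group, the 95% intervals of the members over all genes reached from -0.56 to 0.99.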
